A study of Xenopus laevis with 22 samples.

Results

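Centrins are small calcium-binding proteins of the centriole lumen, and the genes described here are cetn2, cetn3, the centrin-binding gene sfi1 and bbs12. The last was included because it overlaps 1 of the cetn2 copies on the opposite strand and shares its E2f4 peak. The members were all RNA targets carrying 1 of these 4 symbols in the target set shared by most libraries. They came to 7 of its 24383 targets: 3 named cetn2, 2 named cetn3, 1 named sfi1 and 1 named bbs12. Libraries with another target set were matched to these 7 by gene model and position, and no further members were sought there. Each of the 7 passed the filter on low counts.

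Multiciliated cells build many centrioles at once and turn them into the basal bodies of their cilia. Centrin2 and centrin3 sit inside the centriole barrel, and Sfi1 is a long, repeat-rich protein that binds centrins side by side along its length. Centrin2 also works outside the centriole, in a nuclear export complex and in a DNA repair complex, whereas Bbs12 is a chaperonin-like protein that in vertebrates helps to assemble the BBSome, a cargo adaptor of cilia. Multicilin switches on multiciliated cell genes together with E2f4 or E2f5 and their partner Dp1, and a dominant-negative E2f4 was used here to ask which targets depend on that complex.

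The study measured polyA RNA in animal caps, explants of Xenopus laevis embryonic ectoderm, with 20 caps in each library. Every RNA library came from caps injected with mRNA for MCIDAS-HGR, Multicilin fused to the hormone-binding part of the human glucocorticoid receptor, and treated with 20 µM dexamethasone. In 9 of the 18 libraries mRNA for dnE2F4 had been co-injected, and caps were taken 3, 6 and 9 h after induction (stages 13, 16 and 18), with 3 libraries for each of the 6 groups. Binding was measured at 6 h with an antibody to GFP in caps injected with E2F4-GFP, with or without MCIDAS-HGR, as 1 peak set each from 300 caps, pooled by the authors from 2 replicates. By the labels dexamethasone was given to caps carrying an inducible construct, so it too differs between these peak sets, and its part in their differences cannot be told apart from that of Multicilin. No RNA library lacks Multicilin, so none of the values gives a level without it. The injected mRNAs are not limited to 1 cell type by a promoter. Nothing in the labels says that replicates came from separate clutches, so p-values measure the spread between these samples.

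The injected mRNA makes e2f4 a check of the labels. It stood at 14.1 to 36.1 CPM (estimated counts scaled to the library total) in Multicilin libraries and at 1240 to 11100 CPM in dnE2f4 libraries, with 2 exceptions at 9 h. The library labelled Multicilin replicate 2 had 1430 CPM and the library labelled dnE2f4 replicate 2 had 14.2 CPM. Both were left out of the fit. Replicate 1 of dnE2f4 at 3 h and replicate 3 of dnE2f4 at 9 h list another set of 35532 targets and were left out too, which leaves 14 libraries, of which only 1 is a dnE2f4 library at 9 h. Totals over the 18 libraries ran from 9159519 to 38099850 estimated fragments, and a member held 51 to 5585 of them in a fitted library. Ectodermal markers summed to 14600 to 27600 CPM over the 14 libraries, with all 12 listed symbols found.

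The 3 cetn2 targets are separate loci, and other annotations give them other names. The first lies on scaffold 88765 of the JGIv7b assembly, from 2650400 to 2661947 on the plus strand, and its first 138 bases overlap the start of bbs12, which runs from 2644833 to 2650537 on the minus strand. The other target set calls this copy cetn4, and in RefSeq (Xenopus laevis assembly v10.1) the gene beside bbs12.L is cetn4.L, which carries centrin2 and cetn4 as synonyms. It is called the bbs12-side cetn2 below. The second lies on scaffold 50694 (579005 to 589438, plus strand) and the third on scaffold 125180 (1046907 to 1056837, minus strand), where the other target set has cetn2 and cetn1. Each of these stands start to start with a target of nsdhl, a sterol synthesis gene, and the RefSeq genes beside nsdhl.L and nsdhl.S are cetn1.L and cetn1.S. The cetn3 targets lie on scaffold 1187 (6231672 to 6240504, plus strand) and scaffold 32212 (46109 to 57961, plus strand). The sfi1 target spans 1340039 to 1381927 on the minus strand of scaffold 162663, and the genes on either side of it, eif4enif1 and pisd, flank sfi1.L in RefSeq as well.

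How far a level can be tied to 1 copy differs among the members. All fragments of bbs12 and sfi1 aligned to a single target, and so did 97.4 to 99.7% of those of the bbs12-side cetn2. For the cetn3 targets the share was 21.0 to 26.6% on scaffold 1187 and 15.1 to 22.2% on scaffold 32212. For cetn2 on scaffold 50694 it was 15.2 to 26.8%, and on scaffold 125180 it was 27.1 to 51.6%. The split of the 2 cetn3 levels between the copies is therefore uncertain, as are the latter 2 cetn2 levels. Which targets share the fragments of these cetn2 copies was not examined. In Multicilin 3 h replicate 1 the copy on scaffold 50694 had 2017 fragments, 541 of them aligned to it alone. The copy on scaffold 125180 had only 335 in all, so other targets share most of the rest. With the other target set, 89.8 and 88.1% were unique on scaffold 50694, and 100 and 99.6% on scaffold 125180. The library kit keeps no strand, so fragments from the 138 bases shared by bbs12 and cetn2 cannot be assigned by strand.

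The 3 targets named cetn2 did not respond alike to dnE2f4. The other target set names them cetn4, cetn2 and cetn1, so copy here means a locus carrying that symbol. Whether the loci are copies of 1 gene or related genes was not examined by sequence. The bbs12-side copy fell at all 3 times, while neither of the copies beside nsdhl passed the test at any time. At 3 h the bbs12-side cetn2 stood at 101, 105 and 97.4 CPM in the Multicilin libraries and at 33.5 and 40.9 CPM in the dnE2f4 libraries. At 6 h it stood at 250.1, 252.5 and 249.9 CPM against 103.5, 109.9 and 97.1 CPM. At 9 h the Multicilin libraries gave 265 and 253 CPM and the dnE2f4 library gave 110.5 CPM. The groups were far apart at each time, and the 3 Multicilin values at 6 h lay within 3 CPM of each other. The fall was 2.78-fold at 3 h (log2 fold change -1.47 ± 0.14, SE), 2.58-fold at 6 h (-1.37 ± 0.12) and 2.63-fold at 9 h (-1.40 ± 0.18), with edgeR adjusted p of 0.00124, 0.000256 and 0.00811. These p-values come from edgeR's quasi-likelihood test over 20043 targets with Benjamini-Hochberg adjustment, as do all adjusted p below unless another tool is named. The 9 h p-values of all members rest on 1 dnE2f4 library, which is assumed to vary like the other groups, whose spread the fit uses. With only the 9 h libraries in the fit, the adjusted p of the bbs12-side cetn2 was 0.576. In these bulk samples fewer cells expressing a gene and less RNA per cell cannot be told apart.

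The copy on scaffold 50694 did not pass the test at any time. It stood at 61.0, 54.5 and 58.3 CPM in Multicilin libraries and 54.7 and 57.5 CPM in dnE2f4 libraries at 3 h, and at 64.6, 67.6 and 71.6 CPM against 70.0, 65.3 and 67.2 CPM at 6 h. The groups overlapped at both times. Its log2 fold changes were -0.08 (95% interval -0.34 to 0.18), -0.10 (-0.34 to 0.13) and -0.22 (-0.57 to 0.13) at 3, 6 and 9 h. The copy on scaffold 125180 was scarce, at 4.33 to 9.89 CPM over all 14 libraries, and its intervals were wide, the 6 h value being 0.15 (-0.34 to 0.64). Neither cetn2 copy beside nsdhl had an adjusted p under 0.5 at any time. The log2 ratio of the bbs12-side copy to the copy on scaffold 50694 changed with time. In Multicilin libraries it was 0.73 to 0.94 at 3 h, 1.8 to 1.95 at 6 h, and 2.0 and 2.01 at 9 h. In dnE2f4 libraries it was -0.7 and -0.49 at 3 h, 0.53 to 0.75 at 6 h and 0.82 at 9 h. The difference was -1.40, -1.27 and -1.18 at 3, 6 and 9 h. This ratio was added after the values had been seen, so no p-value is given for it.

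**Figure D1:**
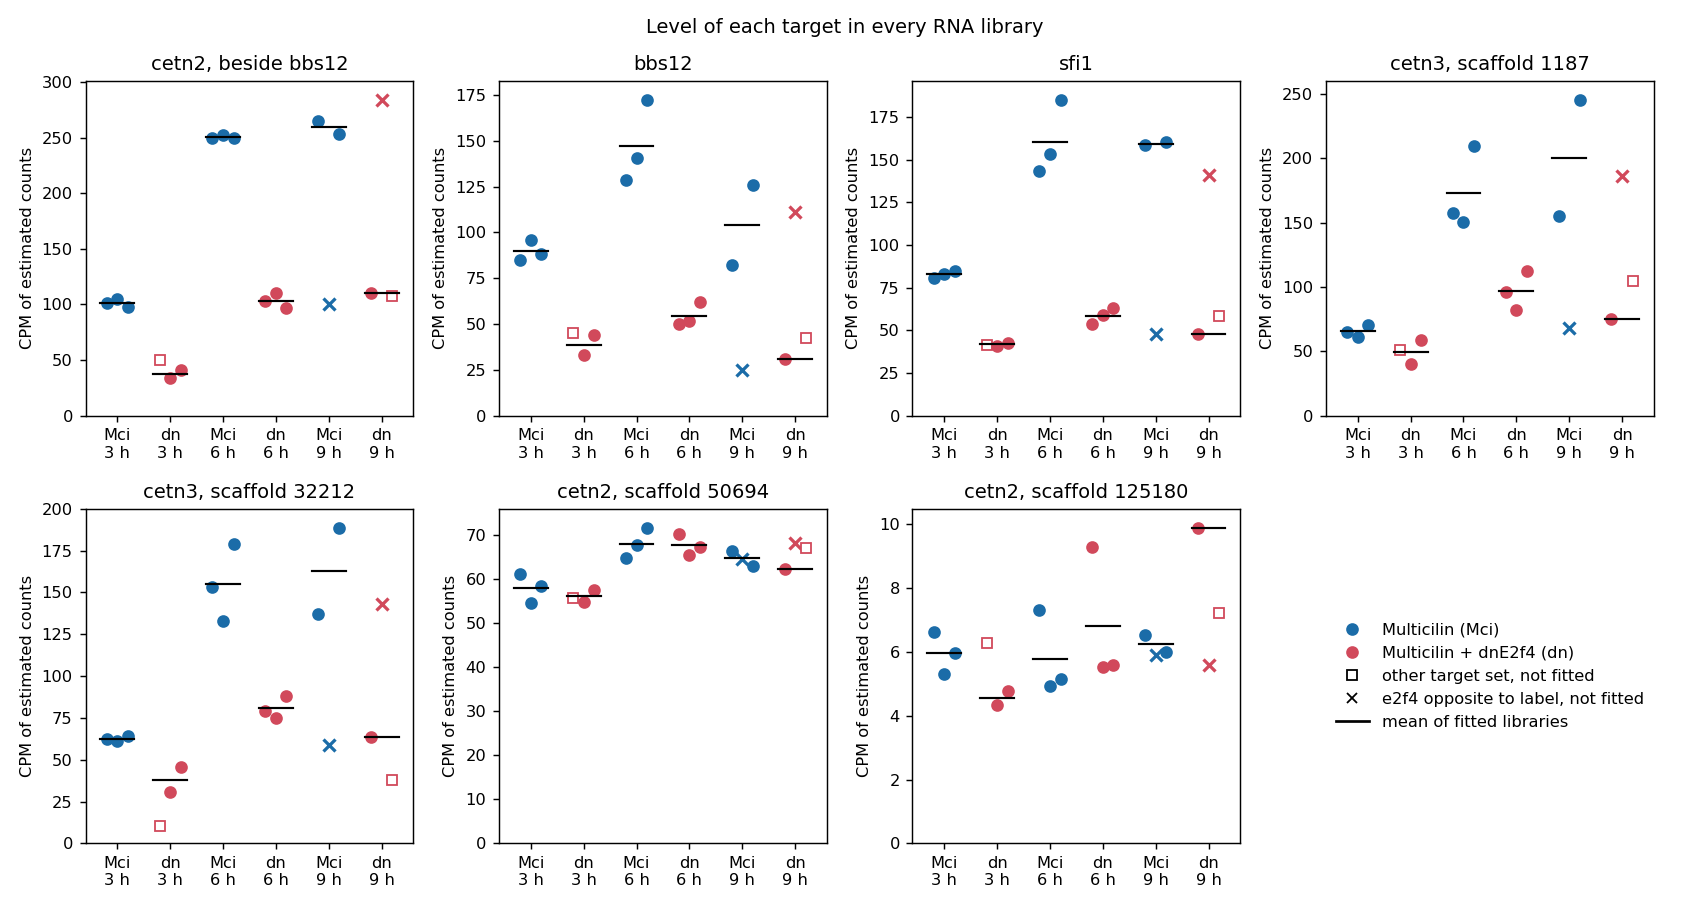
Level of each of the 7 targets (y axis, CPM of estimated counts, linear from 0) in every RNA library, by group and time on the x axis, with blue for Multicilin and red for Multicilin with dnE2f4. Circles are the 14 fitted libraries with their mean as a bar, squares the 2 libraries of the other target set and crosses the 2 libraries whose e2f4 goes against the label; at 6 h the bbs12-side cetn2 stands near 250.1 CPM without dnE2f4 and at 97.1 to 109.9 CPM with it, while cetn2 on scaffold 50694 stays between 54.5 and 71.6 CPM.

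bbs12 fell with its neighbour. At 3 h it stood at 85.1, 95.8 and 88.3 CPM in Multicilin libraries and at 33.2 and 43.9 CPM in dnE2f4 libraries. At 6 h it stood at 128, 140.4 and 172 CPM against 50.1, 51.8 and 62.1 CPM, and at 9 h at 82.2 and 126 CPM against 31.1 CPM. The groups did not overlap at any time, though the Multicilin libraries spread more than those of the bbs12-side cetn2. The fall was 2.38-fold at 3 h (log2 fold change -1.25 ± 0.23, adjusted p 0.0491), 2.88-fold at 6 h (-1.53 ± 0.20, adjusted p 0.00199) and 3.76-fold at 9 h (-1.91 ± 0.32, adjusted p 0.0178). The 3 h value just passed: leaving out Multicilin replicate 1 or 2, or either dnE2f4 library, took its adjusted p to between 0.0988 and 0.629. The 9 h call, with a single dnE2f4 library, was lost without Multicilin replicate 3 (-1.55, adjusted p 0.0742) and with only the 9 h libraries in the fit (adjusted p 0.576).

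sfi1, the long centrin-binding gene, was lower with dnE2f4 at all 3 times. It stood at 80.6, 83.0 and 84.8 CPM in Multicilin libraries and 40.8 and 42.9 CPM in dnE2f4 libraries at 3 h. At 6 h the values were 144, 153 and 185 CPM against 53.8, 59.2 and 63.0 CPM, and at 9 h 158 and 160.3 CPM against 47.6 CPM. No dnE2f4 library reached a Multicilin library at any time. The fall was 2.03-fold at 3 h (log2 fold change -1.02 ± 0.16, adjusted p 0.0255), 2.92-fold at 6 h (-1.55 ± 0.14, adjusted p 0.000273) and 3.76-fold at 9 h (-1.91 ± 0.22, adjusted p 0.00332). The estimate was larger at 6 h than at 3 h by -0.53 ± 0.20 on the log2 scale, which did not pass over all targets (p 0.0215 before adjustment, adjusted p 1 in edgeR's interaction test). Without Multicilin replicate 1 or 2, or either dnE2f4 library, the 3 h call was lost (adjusted p 0.0593 to 0.411). The 9 h call again rests on a single dnE2f4 library and on the spread of the other groups, and had an adjusted p of 0.576 with only the 9 h libraries in the fit.

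The 2 cetn3 targets moved in the same direction and less firmly. On scaffold 1187 the level was 65.0, 61.5 and 70.3 CPM in Multicilin libraries and 40.0 and 59.1 CPM in dnE2f4 libraries at 3 h, then 157.7, 150.8 and 209.9 CPM against 95.9, 82.4 and 112.5 CPM at 6 h. On scaffold 32212 it was 62.2, 61.0 and 64.3 CPM against 30.8 and 45.4 CPM at 3 h, then 153.5, 133 and 179 CPM against 79.2, 74.9 and 88.2 CPM at 6 h. The gap between the groups was narrow at 3 h, where dnE2f4 replicate 3 came close to the Multicilin libraries for the copy on scaffold 1187. At 6 h both fell, by 1.91-fold on scaffold 1187 (log2 fold change -0.93 ± 0.22, adjusted p 0.0427) and 2.05-fold on scaffold 32212 (-1.04 ± 0.19, adjusted p 0.0112). At 3 h the changes were -0.44 ± 0.25 (adjusted p 0.903) and -0.75 ± 0.21 (adjusted p 0.238). At 9 h the copy on scaffold 32212 fell (137 and 188.7 against 63.5 CPM, log2 fold change -1.53, adjusted p 0.034), and the copy on scaffold 1187 did not pass (155 and 245 against 75.3 CPM, -1.58, adjusted p 0.0601).

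The cetn3 calls depended on single libraries. The 6 h call on scaffold 1187 was lost without any 1 of the 6 libraries of that time (log2 fold change -0.73 to -1.07, adjusted p 0.0588 to 0.184). On scaffold 32212 it was lost without Multicilin replicate 3 or dnE2f4 replicate 2, with adjusted p 0.058 and 0.0626, and the 9 h call was lost without Multicilin replicate 3 (-1.25, adjusted p 0.146). With replicate number as a block the targets on scaffolds 1187 and 32212 both passed at 3 h (-0.53 and -0.82, adjusted p 0.0365 and 0.00332), and the target on scaffold 1187 passed at 9 h (-1.33, adjusted p 0.000538). Its 9 h change also passed with DESeq2 (-1.63, adjusted p 0.000503), with uniquely assigned counts (-1.45, adjusted p 0.0284) and without Multicilin replicate 1 (-1.89, adjusted p 0.0272). It did not pass with only the 9 h libraries in the fit (-1.60, adjusted p 0.599). Counting only fragments aligned to a single target gave the copies log2 fold changes of -1.0 and -1.02 at 6 h.

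Counted together, 3 of the 7 members were lower with dnE2f4 at 3 h, where 0.269% of all targets tested were called lower. At 6 h 5 of 7 were lower, beside 2.57% of all targets, and at 9 h 4 of 7, beside 0.918%. None was called higher at 3 or 6 h, where 0.015% and 0.868% of all targets were. With shares this small, no call among 7 targets does not set them apart from all targets. With replicate number as a block, 562, 1786 and 1278 targets were called lower in place of 54, 516 and 184 at 3, 6 and 9 h, and 5 of 7 members were lower at each time. These make up 2.8%, 8.91% and 6.38% of all targets tested, and with DESeq2 the shares called lower were 3.14%, 6.04% and 5.06%. With only the libraries of the 2 groups compared in the fit, no member passed at 3 or 9 h, and with both 9 h replicate 2 libraries taken as labelled edgeR called no target at any time, members included. In that fit the 5 members lower at 6 h had log2 fold changes of -1.56 to -0.94 there, with edgeR p of 0.00209 to 0.042 before adjustment. At 3 h 2 members and at 9 h 0 had a p under 0.05 before adjustment. The share of all targets under 0.05 in that fit was not counted, so these counts do not set the members apart.

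**Figure D2:**
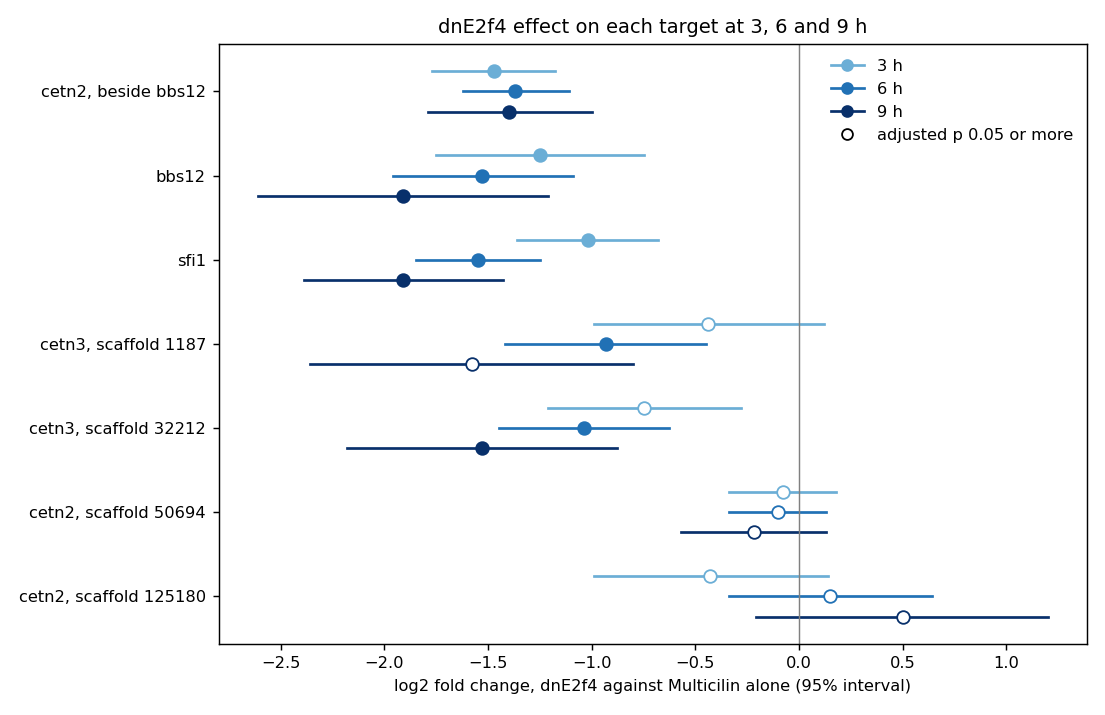
Log2 fold change of dnE2f4 against Multicilin alone (x axis) with its 95% interval for each target (y axis), at 3, 6 and 9 h from light to dark blue. Filled points passed an adjusted p of 0.05; the bbs12-side cetn2, bbs12 and sfi1 are filled at all 3 times, both cetn3 targets at 6 h, and the cetn2 targets on scaffolds 50694 and 125180 at no time.

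The bbs12-side cetn2, bbs12 and sfi1 were also low in the 2 unfitted dnE2f4 libraries of the other target set. The dnE2f4 library of the other target set at 3 h had 50.0 CPM of the bbs12-side cetn2, 45.3 CPM of bbs12 and 41.4 CPM of sfi1, and its counterpart at 9 h had 107.7, 42.5 and 58.2 CPM. These values lay below the fitted Multicilin libraries of their time, but the share of all targets that did so was not counted. CPM in these libraries are scaled to totals over another set of 35532 targets. The cetn3 copies were split otherwise there, with 50.8 CPM on scaffold 1187 and 10.2 CPM on scaffold 32212 at 3 h. With these 2 libraries joined by gene model and position, the log2 fold changes at 3 h were -1.14 for the bbs12-side cetn2, -1.01 for bbs12 and -0.88 for sfi1, with adjusted p of 0.0672, 0.317 and 0.174, so none passed. In the same fit the 9 h change of bbs12 (-1.38, adjusted p 0.0546), that of cetn3 on scaffold 32212 (-1.65, adjusted p 0.0511) and both 6 h changes of cetn3 (-0.94 and -1.04, adjusted p 0.129 and 0.137) did not pass, while the bbs12-side cetn2 and sfi1 passed at 6 and 9 h.

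The members' log2 fold changes were compared as ratios within a library, by an exact two-sided permutation test of the dnE2f4 labels within each time. The smallest p that the 600 relabellings allow is 0.00167. The ratio of the bbs12-side cetn2 to bbs12 differed between dnE2f4 and Multicilin libraries by 0.13 on the log2 scale, averaged over the times (p 0.618, adjusted over 3 ratios 0.685), and its ratio to sfi1 by 0.07 (p 0.685, adjusted 0.685). Both averages join differences of opposite sign. At 3, 6 and 9 h they were -0.22, 0.14 and 0.47 for bbs12 and -0.46, 0.17 and 0.51 for sfi1. The 9 h values rest on 1 dnE2f4 library. The ratio of the bbs12-side cetn2 to the cetn3 target on scaffold 1187 differed by -0.44 (p 0.0783, adjusted 0.235), with -1.01 at 3 h, -0.45 at 6 h and 0.14 at 9 h. No ratio passed in this test, which does not use replicate numbers. In the 6 pairs of same-numbered libraries the ratio to cetn3 was lower with dnE2f4 in 6 of 6, by -1.02 and -1.0 at 3 h, -0.56, -0.33 and -0.46 at 6 h and -0.22 at 9 h (mean -0.60). An exact two-sided test over sign flips, added after these values were seen, gave p 0.0312 without adjustment over the 3 ratios, the smallest it allows. At 3 h the deviations from the group mean correlated at only 0.16 and 0.28 between same-numbered libraries, and at 9 h pairing could not be checked. Multicilin 9 h replicate 3, which is in no pair, had a log2 ratio to cetn3 of 0.05, beside 0.55 in the dnE2f4 library. The paired ratios to sfi1 and bbs12 were each lower in 2 and higher in 4 of the 6 (means 0.01 and 0.03, p 0.938 and 0.719), the lower 2 being the pairs of 3 h. The unpaired ratio to cetn3 passed before adjustment without Multicilin 9 h replicate 3 (-0.56, p 0.005) or without the only dnE2f4 library of 9 h (-0.73, p 0.01).

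With time in Multicilin caps, 6 of the 7 members rose from 3 to 6 h, beside 25.7% of all targets called higher. The rise was 3.15-fold for cetn3 on scaffold 1187 (log2 fold change 1.65 ± 0.23), 2.96-fold for cetn3 on scaffold 32212 (1.56 ± 0.19), 2.95-fold for the bbs12-side cetn2 (1.56 ± 0.12), 2.31-fold for sfi1 (1.21 ± 0.14), 1.95-fold for bbs12 (0.97 ± 0.20) and 1.39-fold for cetn2 on scaffold 50694 (0.48 ± 0.11). The adjusted p ran from 5.01e-07 to 0.0026 over these 6. Only cetn2 on scaffold 125180 did not pass (0.20 ± 0.23, adjusted p 0.477). Among the alternatives, 1 lost the call of bbs12 and 1 that of cetn2 on scaffold 50694. The log2 fold change of the latter ran from 0.23 to 0.54 across the fits. Scaled to the library total alone, this copy averaged 57.9 ± 3.24 CPM at 3 h and 67.9 ± 3.49 CPM at 6 h (SD, n = 3 each). Its uniquely assigned counts, scaled to their own total, averaged 29.3 CPM at 3 h and 30.3 CPM at 6 h.

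In dnE2f4 caps all 7 members passed as higher at 6 h than at 3 h, beside 23.9% of all targets. For 3 of them this depended on the fit: joined by gene model, the adjusted p of cetn2 on scaffold 125180, bbs12 and cetn2 on scaffold 50694 was 0.203, 0.168 and 0.105. Without dnE2f4 3 h replicate 2 it was 0.146, 0.178 and 0.0545. The bbs12-side cetn2 rose 3.18-fold there (log2 fold change 1.67 ± 0.14), close to its rise without dnE2f4, and the change of its dnE2f4 effect between the times was 0.11 (95% interval -0.27 to 0.48). sfi1 rose 1.60-fold (0.68 ± 0.15). The rises thus went on from a lower level: the bbs12-side cetn2 reached 104 ± 6.38 CPM (SD, n = 3) with dnE2f4 at 6 h, near its 101 ± 3.69 CPM (SD, n = 3) without it at 3 h. The change of the effect from 3 to 6 h passed for none of the 7 members in edgeR's test, with DESeq2 or with the block. Over all targets only 1 of 20043 passed in edgeR's test, 23 with DESeq2 and 48 with the block. No call among 7 targets therefore does not show that the effect stayed the same. Before adjustment only sfi1 had a p under 0.05 in edgeR's test, beside 827 of all 20043 targets. From 6 to 9 h in Multicilin caps none of the 7 passed in edgeR's test. Over all targets 14.3% were called higher and 14.5% lower. Before adjustment none of the 7 had a p under 0.05, whereas 8045 of all 20043 targets did. The bbs12 estimate was -0.29 ± 0.22 there. With replicate number as a block, bbs12 fell (-0.33, adjusted p 0.0479) and cetn3 on scaffold 1187 rose (0.31, adjusted p 0.0478) in Multicilin caps, and bbs12 fell in dnE2f4 caps (-0.48, adjusted p 0.0441).

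The ratio of the bbs12-side cetn2 to bbs12 was higher at the later times in both kinds of caps. Per kb of effective length, the bbs12-side cetn2 stood at 97.6 ± 2.96 CPM (SD, n = 3) and bbs12 at 52.7 ± 4.78 CPM at 3 h in Multicilin caps. At 6 h they stood at 250 ± 7.06 and 85.1 ± 10.6 CPM per kb, and at 9 h at 265 ± 4.17 and 59.1 ± 16.2 CPM per kb (SD, n = 2). The log2 ratio of their CPM was 0.13 to 0.25 in the 3 Multicilin libraries of 3 h, 0.54 to 0.96 at 6 h, and 1.69 and 1.01 at 9 h. In dnE2f4 libraries it was 0.02 and -0.10 at 3 h, 0.64 to 1.08 at 6 h and 1.82 at 9 h. The ranges of 3 and 6 h did not overlap in either kind of caps, and the difference between times was not tested.

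Added up per length, the 5 centrin targets stood at 348 ± 4.51 CPM per kb (SD, n = 3) in Multicilin caps at 3 h and at 195 and 258 CPM per kb in the dnE2f4 libraries. At 6 h the sums were 817 ± 89.3 and 446 ± 37.2 CPM per kb (SD, n = 3 each), and at 9 h 771 and 1020 CPM per kb against 404. The bbs12-side cetn2 made up 27.2 to 29.4% of the sum without dnE2f4 and 15.4 and 16.2% with it at 3 h, and 28.0 to 32.8% against 20.8 to 25.8% at 6 h. At 9 h its share with dnE2f4, 28.0%, lay between the 26.3 and 34.0% of the Multicilin libraries. The cetn2 copy on scaffold 50694 went the other way, from 8.18 to 9.81% without to 14.9 to 16.9% with dnE2f4 at 6 h, since the rest of the sum shrank around it. The 2 cetn3 targets together held 52.2 to 66.7% of the sum across the 14 libraries. At 6 h their ranges overlapped, 57.0 to 63.5% without and 56.5 to 63.7% with dnE2f4.

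**Figure D3:**
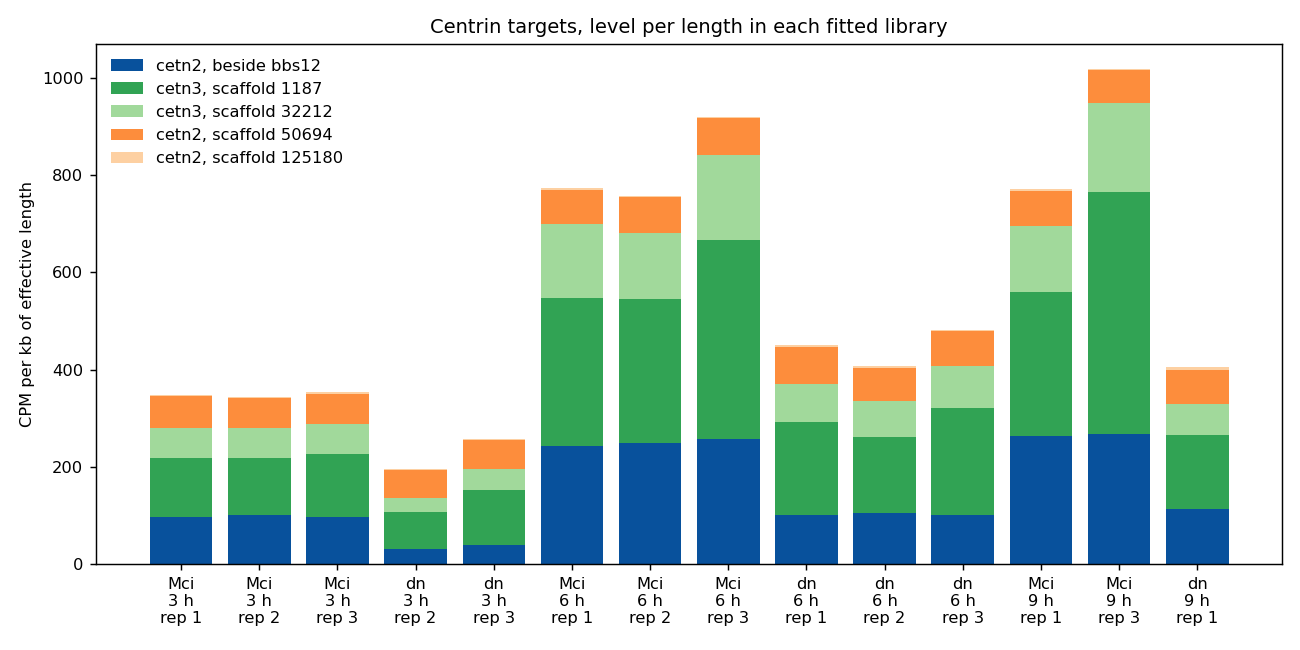
Level per length (y axis, CPM per kb of effective length) of the 5 centrin targets, stacked, in each of the 14 fitted libraries (x axis). The stack reaches 758 to 920 CPM per kb in the Multicilin libraries of 6 h and 407 to 481 in the dnE2f4 libraries, and the orange band of cetn2 on scaffold 50694 measures 56.1 to 64.0 CPM per kb at 3 h and 68.9 to 75.9 at 6 h.

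E2f4-GFP peaks lay at the start of 4 of the 7 members in both peak sets, within 1 kb, where 15.4% of all 24383 targets had a peak in both. These were the bbs12-side cetn2, bbs12 and both cetn3 targets. Because bbs12 was chosen as a member for the peak it shares with cetn2, its peak is no separate result. A single peak covered the starts of bbs12 and cetn2 on scaffold 88765, from 2650364 to 2650560 without Multicilin and from 2650366 to 2650576 with it. Its centre lay 62 and 71 bases downstream of the cetn2 start, and 75 and 66 bases downstream of the bbs12 start on the other strand, inside the overlap of the genes. The cetn3 peaks were placed in the same way, from 6231652 to 6231848 and from 6231637 to 6231847 on scaffold 1187, and from 46089 to 46285 and from 46071 to 46281 on scaffold 32212. Their centres lay 67 to 78 bases downstream of the start. In each of these 4 cases the peaks of the 2 sets overlapped by 193 to 196 bases of peaks 197 and 211 bases long.

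The remaining members had other arrangements. At sfi1 the nearest peak lay inside the gene, from 1378859 to 1379055 without Multicilin and from 1378841 to 1379051 with it, centred 2970 and 2981 bases downstream of the annotated start, so it counts within 5 kb and not within 1 kb. At cetn2 on scaffold 50694 a peak covered the start in the set without Multicilin (578957 to 579153), and the nearest peak with Multicilin was 92.1 kb away. The peak covering this cetn2 start also lies within 1 kb of the start of nsdhl. At cetn2 on scaffold 125180 the nearest peaks were 32.9 and 40.0 kb away. The set with Multicilin was called from 15313243 tags and held 12778 peaks, and the set without from 24997566 tags and held 15693, and the part of depth in a peak listed in only 1 set was not tested. The score column is the same for every peak, so heights cannot be compared. Within 5 kb of the start 5 members had a peak in both sets, beside 19.0% of all targets, and these were the 5 that were lower with dnE2f4 at 6 h. Within 1 kb 4 of these 5 did, sfi1 being the exception, and the relation was not tested. Among the 5, bbs12 was chosen for the peak it shares with cetn2, so that peak is counted for both.

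**Figure D4:**
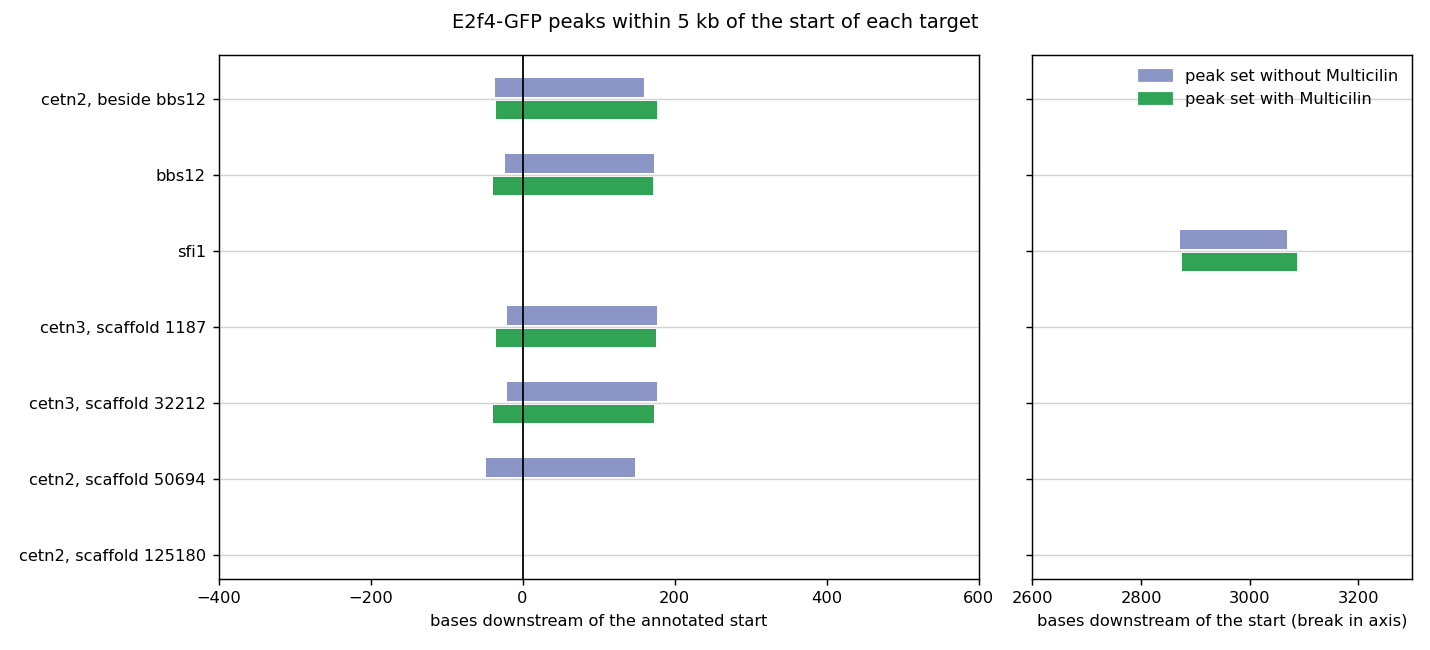
E2f4-GFP peaks within 5 kb of each target's annotated start, as bars to scale along the distance downstream of the start in bases (x axis, with a break), purple for the set without and green for the set with Multicilin. The bbs12-side cetn2, bbs12 and both cetn3 targets have bars of both colours across the start, sfi1 has both near 2970 bases, cetn2 on scaffold 50694 has only a purple bar and cetn2 on scaffold 125180 has none.

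Targets within 20 kb of the members, a window chosen after the values were seen, were looked at for the same changes. Next to sfi1, eif4enif1, a binding partner of the cap-binding protein eIF4E, starts 1049 bases away on the other strand and fell at 6 h (185 ± 22.8 against 95.6 ± 10.4 CPM, SD, n = 3 each, log2 fold change -1.05, adjusted p 0.00302). pisd, a phosphatidylserine decarboxylase gene of the mitochondrion, overlaps the 3′ end of sfi1 by 1216 bases on the other strand and also fell at 6 h (15.6 ± 5.73 against 5.65 ± 0.74 CPM, SD, n = 3 each, -1.58, adjusted p 0.0176). The kit keeps no strand, and whether fragments of sfi1 entered the pisd count was not tested. The nsdhl targets beside the other cetn2 copies did not pass at 6 h (0.11 and -0.14), nor did mblac2 beside cetn3 (-0.56, adjusted p 0.396).

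Genes that work with centrins at the centriole were mostly lower with dnE2f4 at 6 h. Of the 13 targets found for centrin partners and inner scaffold proteins of the centriole, 10 fell at 6 h, beside 2.57% of all targets. The median log2 fold change of the 13 was -0.87, beside a median of 0.03 over all targets. The largest falls were those of cep76, which limits centriole reduplication (339 to 109 CPM, -1.73), the inner scaffold gene wdr90 (526 to 202 CPM, -1.47) and 2 targets of ccp110, the centriole cap protein that binds centrin (114 to 48.9 CPM, -1.31, and 233 to 109 CPM, -1.19). The scaffold gene poc5, whose product binds centrin directly, did not pass (238 and 163 CPM, -0.65, adjusted p 0.225). At 3 h 1 of the 13 fell, a ccp110 target, beside 0.269% of all targets. The medians were -0.80 at 3 h and -1.21 at 9 h, where a single dnE2f4 library remained. With replicate number as a block the counts were 11 and 12 at 3 and 6 h, beside 2.8% and 8.91% of all targets.

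None of the 11 targets of the nuclear centrin complexes passed in edgeR's test at 3 or 6 h. Over all targets 0.269% and 2.57% were called lower at these times, and 0.015% and 0.868% higher. With shares this small, no call among 11 targets does not set them apart from all targets. Their 6 h log2 fold changes ran from -0.36 to 0.42 (median 0.13). At 9 h, with a single dnE2f4 library, the values ran from -0.75 to 0.81. The 11 targets include mcm3ap and pcid2 of the export complex and xpc of the repair complex. Before adjustment 0 and 1 of them had a p under 0.05 at 3 and 6 h, beside 1442 and 3266 of all 20043 targets. DESeq2 called 0 and 0 of them, beside 3.14% and 6.04% of all targets called lower. The fit with the block called 0 and 1 of them lower, beside 2.8% and 8.91%. Among the chaperonin-like BBS genes and the CCT chaperonin, 3 of 17 targets fell at 6 h, namely 2 targets of cct4 (58.1 to 17.2 CPM, -1.86, and 247 to 138 CPM, -0.93) and 1 of cct8 (64.9 to 36.5 CPM, -0.93), with a list median of -0.50. With replicate number as a block 12 of the 17 were called lower at 6 h, beside 8.91% of all targets, and with DESeq2 6 were, beside 6.04%. In the fit of 14 libraries the share over all targets at 6 h was 2.57%, as given above. The bbs12 relatives mkks and bbs10 did not pass (0.19 and -0.51). Of the 8 BBSome targets none passed in edgeR's test at 3 or 6 h, beside 0.269% and 2.57% of all targets called lower. All 8 estimates were nevertheless lower with dnE2f4 at each time. They ran from -0.75 to -0.11 at 3 h and from -0.45 to -0.13 at 6 h. At 9 h, with a single dnE2f4 library, they ran from -0.79 to -0.4 (median -0.64, beside 0.02 over all targets). All 8 rose from 3 to 6 h in Multicilin caps (median 1.64), beside 25.7% of all targets. Before adjustment 6 and 4 of the 8 had a p under 0.05 in edgeR's test at 3 and 6 h. So did 1442 and 3266 of all 20043 targets. DESeq2 called 1 and 2 of the 8 lower, beside 3.14% and 6.04% of all targets. The fit with replicate number as a block called 3 and 4 lower, beside 2.8% and 8.91%. bbs12, at -1.53, lay below all 8 BBSome targets and below mkks and bbs10 at 6 h.

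**Figure D5:**
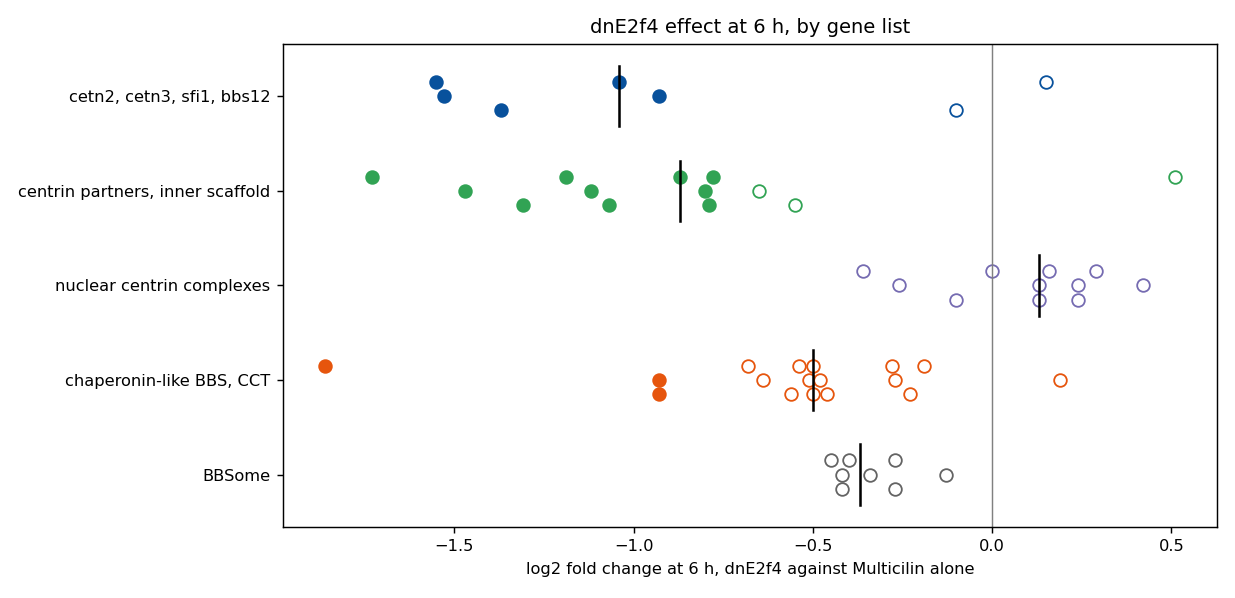
Log2 fold change of dnE2f4 against Multicilin alone at 6 h (x axis) for the 7 members and the targets of 4 gene lists (rows), filled where the adjusted p was under 0.05, with a bar at each median. Filled points gather among the members (5 of 7) and the centrin partners (10 of 13), 3 of 17 lie among the chaperonin genes, and none among the nuclear centrin complexes or the BBSome. Over all targets 2.57% were called lower at 6 h.

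Over the 14 libraries, the targets whose log2 CPM followed the bbs12-side cetn2 most closely were 2 targets of fbxo43, an inhibitor of the anaphase-promoting complex (Pearson r 0.987 and 0.981), the p53 relative tp73 (0.981), ccp110 (0.980) and the centriole and basal body gene alms1 (0.979). All of these fell with dnE2f4 at 6 h, beside 2.57% of all targets. They were picked for likeness over the same libraries, in which this cetn2 copy fell, so their falls are no separate result. For sfi1 the closest targets were the RNA-binding gene fmr1 (0.990), the procentriole gene stil (0.989), cct4 (0.988), the gamma-tubulin gene tubg1 (0.987) and cep76 (0.986). These were picked in the same way and also fell at 6 h. Among the members, r with the bbs12-side cetn2 was 0.965 and 0.927 for the cetn3 targets, 0.937 for sfi1, 0.841 for bbs12, 0.857 for cetn2 on scaffold 50694 and 0.554 for cetn2 on scaffold 125180. bbs12 followed sfi1 (0.942) more closely than its own neighbour. These values come from 12557 targets over shared libraries that differ by time and by dnE2f4, so they describe likeness over 6 groups and carry no test.

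Markers of other cell types also differed between the groups. At 6 h the summed ionocyte markers stood at 116 to 238 CPM without and 277 to 396 CPM with dnE2f4, with all 4 listed symbols found, and goblet markers at 750 to 817 and 1070 to 1400 CPM (4 of 5 found). Neural plate markers stood at 200 to 224 and 114 to 141 CPM (5 of 6 found), and endoderm markers at 69.6 to 94.4 and 100 to 105 CPM (4 of 6 found). Mesoderm markers summed to at most 23.9 CPM in any fitted library, with 6 of 7 found. The part of these shifts in the members' changes was not tested.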

How the data were processed

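RNA and ChIP samples were grouped by the labels. Per the file headers, eXpress made the deposited estimated counts (expected counts, shared among targets for ambiguous fragments) and uniquely assigned counts (whole fragments aligned to a single target); neither was normalized. The submitters' processing notes name HOMER, DESeq, eXpress and the aligners Bowtie, Bowtie2 and STAR without versions. The effective lengths, also deposited, were used for levels per kb. Peaks were called by the authors with HOMER on 2 pooled replicates against input (FDR 0.001, 4-fold over input), per the file headers, and their deposited score is 1 throughout. Positions refer to JGIv7b; no genome sequence was used, and no member sequence is shown.

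Estimated counts were rounded, filtered with filterByExpr, normalized by TMM and tested in edgeR 4.0.16 (robust quasi-likelihood, R 4.3.3) with a mean per group over 14 libraries, at a Benjamini-Hochberg adjusted p of 0.05. CPM are estimated counts scaled to the library total; likeness used log2 CPM with a prior count of 2 and targets of at least 5 CPM on average. Ratios used a pseudocount of 0.25 CPM. DESeq2 1.42.0 was an alternative. The procedure was tested on simulated data. No libraries of a group were duplicates (lowest chi-square per degree of freedom 13.9).

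The members and gene lists were chosen with earlier results of these data known. Named genes were the members, e2f4, the 5 targets most like the bbs12-side cetn2 and sfi1, and up to 4 called targets per list with the largest change at 6 h; neighbouring genes were added after their values were seen. Replicate numbers come from the titles. Deviations from the group mean correlated between same-numbered libraries at 0.16 and 0.28 at 3 h and at 0.68, 0.42 and 0.46 at 6 h, so numbers pair the libraries of 6 h; at 9 h a single dnE2f4 library remained and this could not be checked.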

Additional observations from a re-analysis of the deposited data

Results flagged for a closer look

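The e2f4 level of 1430 CPM in the library labelled Multicilin 9 h replicate 2 stands far above the 14.1 to 36.1 CPM of the other Multicilin libraries, although no dnE2f4 was labelled as injected there. The members in the same library stood at 100.8 CPM for the bbs12-side cetn2, 25.2 CPM for bbs12 and 47.8 CPM for sfi1, below both fitted Multicilin libraries of 9 h. In the library labelled dnE2f4 9 h replicate 2, with e2f4 at 14.2 CPM, they stood at 283.9, 111.2 and 140.8 CPM. An exchange of labels was not tested, and neither library entered the fit.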

How the results depend on the processing

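Under an alternative, 779 values kept their side of the threshold. These are values of the members and 18 of the log2 ratio of the bbs12-side cetn2 to cetn2 on scaffold 50694. Of the 779, 748 kept their sign and 31, all uncalled, changed it. Another 65 kept the direction and lost the call, and 11 gained one. The counts of targets called moved more. Against 57, 690 and 227 targets for the dnE2f4 effect at 3, 6 and 9 h and 1 for its change from 3 to 6 h, the 16 libraries with labels as deposited gave 0, 0, 0 and 0, DESeq2 gave 402, 1415, 1058 and 23, and fitting only the groups compared gave 2, 403, 1 and 2. Fitting only the groups compared also gave 1466 in place of 3826 for dnE2f4 caps from 6 to 9 h. With replicate number as a block the dnE2f4 counts were 621, 3191 and 2175, with 48 for the change, 9206 (in place of 5767) for Multicilin caps from 6 to 9 h and 6830 for dnE2f4 caps; beyond the calls given above, the block changed no member's dnE2f4 call. Joining the other target set by gene model, an alternative chosen after the data were seen, gave 18 at 3 h, 277 at 6 h and 2 for the change. Sums by symbol, which test fewer features and add the 2 libraries of the other target set, gave 360 and 498 at 6 and 9 h, 5720 (in place of 10444) and 3145 for Multicilin caps from 3 to 6 h and 6 to 9 h, 5631 (in place of 9248) for dnE2f4 caps from 3 to 6 h and 2 for the change.

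Leaving out 1 library at a time gave 2 to 202, 205 to 721 and 27 to 271 targets at 3, 6 and 9 h, 3787 to 5253 for Multicilin caps and 2541 to 4581 for dnE2f4 caps from 6 to 9 h, and 0 to 1 for the change. The log2 ratio of the bbs12-side cetn2 to cetn3 on scaffold 1187 passed before adjustment with labels as deposited (-0.45, p 0.033), with uniquely assigned counts (-0.45, p 0.03) and joined by gene model (-0.49, p 0.02), and in same-numbered pairs (-0.60, p 0.0312), and ran from -0.73 to -0.32 without 1 library. With the targets of a symbol summed over 16 libraries, the cetn2 copies matched by position, it turned to 0.18 (p 0.316), and the ratios to sfi1 and bbs12 were 0.54 and 0.54 (p 0.000833 each). Over the 14 fitted libraries alone, added after the data were seen, these sums gave 0.11 (p 0.69), 0.56 (p 0.00167) and 0.62 (p 0.00333). The cetn2 sums include the 2 copies beside nsdhl, neither of which passed at any time. Why the counts and ratios moved was not tested.

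Without scaling beyond library size the median of all targets was 0.12 and 0.18 for the dnE2f4 effect at 6 and 9 h and -0.28 for Multicilin caps from 3 to 6 h (0.03, 0.02 and -0.03 with TMM), and cetn3 on scaffold 1187 lost its 6 h call (adjusted p 0.0503); with RLE factors bbs12 lost its 3 h call (0.0511). A stricter peak threshold was not run, since all scores are equal, and the fit of symbol sums gave no cetn2 fold change because the other target set names the copies differently. Depth limits the scarce members, with 51 to 5585 fragments in a library.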
